A study of Mus musculus with 6 samples.

Results

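The sialidases and the glycosidases that take apart glycoproteins and glycolipids were examined in the liver of diabetic and wildtype male mice. The set was given as 9 genes: the sialidases Neu1, Neu2 and Neu3, the glycoprotein enzymes Fuca1, Manba, Man2b1 and Aga, and the glycolipid enzymes Gla and Galc. Genes were found through the RefSeq accession in each probe set's name, and 8 of the 9 were measured, each by 1 probe set, among 909 named genes and 1246 probe sets in all. Fuca1, the lysosomal alpha-fucosidase, had no probe set named in this way and was not analysed here. The study compared 3 liver RNA samples of mice with insulin-deficient diabetes with 3 of healthy wildtype mice, all male. It used an Affymetrix array focused on glycan genes, with 1 array per sample. The sources used here do not state how the diabetes was produced, the strain or the age. The labels do not say whether each array came from a separate animal, and if some did not, the p-values measure only the spread between these samples. In whole liver RNA, fewer cells of a type and less RNA per cell cannot be told apart.

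Glycans on proteins and lipids are dismantled in the lysosome from their outer end, with each exoglycosidase removing 1 kind of sugar before the next enzyme can act. Sialic acid is usually the outermost sugar, so a sialidase acts early. Inherited loss of these enzymes causes lysosomal storage diseases, among them sialidosis (human NEU1), alpha-mannosidosis (MAN2B1), beta-mannosidosis (MANBA), aspartylglucosaminuria (AGA), Fabry disease (GLA) and Krabbe disease (GALC). In liver, hepatocytes and resident macrophages take up circulating glycoproteins and carry them to lysosomes.

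The values are log2 expression values, so a difference of 1 is a doubling in signal. The arrays' medians lay between 4.93 and 5.06. All 10 measured hepatocyte markers had means above the array median, and their differences ran from -0.61 for Igfals to 2.74 for Igfbp1, with a median of 0.01, 5 higher and 5 lower means, and Mbl2 called (1.03, limma adjusted p = 0.0412; 0.142 with the replicate block). On the linear scale their summed signal ran from 17890 to 20496 in diabetic and from 13140 to 16873 in wildtype livers, so the groups did not overlap, and its part in the glycosidase values was not tested. Such a sum is carried by the brightest and most changed genes, and it is not a measure of hepatocyte number. The Igfbp1 difference had an SE of 1.15 and was not called (limma adjusted p = 0.928). Its groups overlapped, with wildtype 3 at 10.09 and diabetic 2 at 8.90. Besides Igfbp1 and Mbl2, the higher means were those of Angptl4 (0.97), Mbl1 (0.27) and Asgr2 (0.02). Besides Igfals, the lower ones were those of Asgr1 (-0.0033), Fgf21 (-0.03), St6gal1 (-0.06) and Igf1 (-0.16). The number of arrays limits the precision: the standard error (SE) of a diabetic minus wildtype difference was between 0.08 and 0.18 for the glycosidases, against a median of 0.11 over all probe sets. Wildtype 2 lay over 0.5 above or below every other array on 40 probe sets and diabetic 3 on 21, against 1 to 11 for the other arrays.

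Diabetic and wildtype livers were not told apart in any of the 8 glycosidases by the test across all probe sets. Means were higher in diabetic liver for 6 of the 8, by between 0.01 and 0.34 on the log2 scale, and lower for Neu3 and Man2b1. For Neu1, Aga and Gla the lowest diabetic array exceeded the highest wildtype array. With limma and Benjamini-Hochberg adjustment over all probe sets, 0 of 8 passed an adjusted p of 0.05, where 0.321% of all probe sets passed (4 of 1246, and 0 with the replicate number as a block). At an unadjusted limma p under 0.05 there was 1 glycosidase, Neu1, which was higher in diabetic liver, where 2.97% of all probe sets had such a p and 1.85% had it with a higher mean. With the replicate block there were 2, Neu1 and Aga, where 4.33% of all probe sets had such a p.

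**Figure D1:**
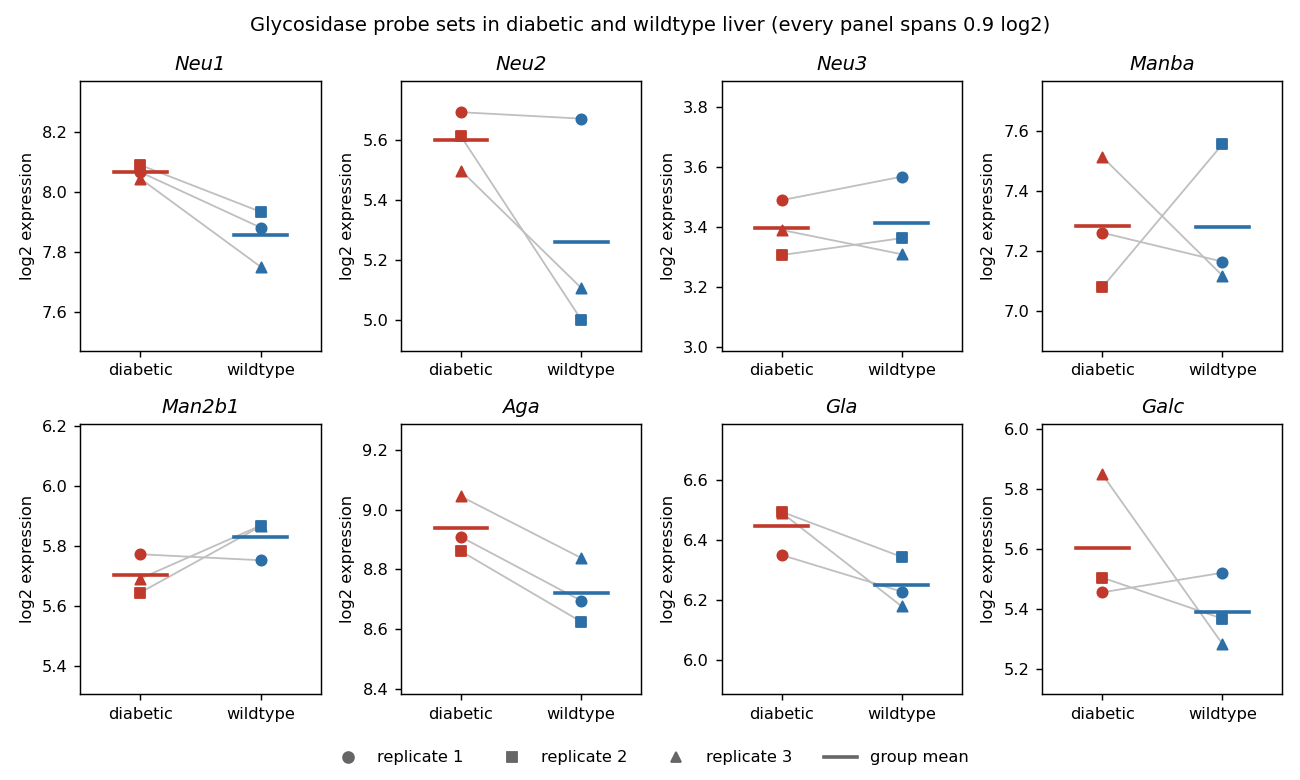
Log2 expression of the 8 measured glycosidases (y axis, a span of 0.9 in every panel) in diabetic liver (red, left) and wildtype liver (blue, right). Symbols mark the replicate number, grey lines join arrays of the same number and bars are group means (n = 3); in the Neu1, Aga and Gla panels all red points lie above all blue points.

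The start regions of Gla and Neu1 are shown because both genes had groups that did not overlap and because they carry letters related to the CLEAR element, a palindrome that the lysosomal regulator TFEB binds near many lysosomal genes. RefSeq promoter windows of 300 bases, from 250 before to 50 after the start site, were held for 7 of the 8 measured glycosidases and for Fuca1, making 10 windows because Neu2 has several start sites. No window was held for Aga, whose groups did not overlap either, so its start region was not searched. The sequences below run 5′ to 3′ on the gene's strand in build GRCm38.p6, for Gla at chrX:134600956-134601255 (minus strand) and for Neu1 at chr17:34931003-34931302 (plus strand), and capitals mark CACGTG and TCACATG or its reverse complement CATGTGA.
Gla: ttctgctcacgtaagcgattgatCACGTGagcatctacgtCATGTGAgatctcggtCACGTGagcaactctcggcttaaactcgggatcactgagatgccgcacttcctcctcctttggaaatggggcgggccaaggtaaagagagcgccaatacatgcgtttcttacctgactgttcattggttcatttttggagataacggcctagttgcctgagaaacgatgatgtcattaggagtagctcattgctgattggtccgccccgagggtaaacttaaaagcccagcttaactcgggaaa
Neu1: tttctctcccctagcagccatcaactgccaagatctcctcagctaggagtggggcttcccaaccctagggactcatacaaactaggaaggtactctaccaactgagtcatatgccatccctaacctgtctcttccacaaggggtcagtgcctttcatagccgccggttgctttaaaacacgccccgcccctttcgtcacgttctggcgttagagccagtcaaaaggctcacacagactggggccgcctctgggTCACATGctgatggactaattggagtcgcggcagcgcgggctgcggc
The Gla window held CACGTG at 2 places, starting 227 and 194 bases before the start site, each inside the longer palindrome TCACGTGA, and CATGTGA once between them. The Neu1 window held no CACGTG and held TCACATG once, starting 3 bases after the start site. Both strands were searched in all 32851 RefSeq windows: CACGTG was found in 7.15% of them, TCACGTGA, which contains it, in 0.974%, and TCACATG in 3.99%. Among the 10 glycosidase windows CACGTG and TCACGTGA were found in 1 (Gla) and TCACATG in 2 (Gla and Neu1). The letters were chosen after the promoters were seen, so these counts are not a separate result beside the shares of all windows. These are matches of letters in a window, and binding was not measured. Whether they bear on the glycosidase signals was not tested.

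Neu1 is the lysosomal sialidase, which works in a complex with the protective protein Ctsa and beta-galactosidase, Glb1. Its values were 8.07, 8.09 and 8.05 in diabetic livers 1 to 3, against 7.88, 7.93 and 7.75 in wildtype livers 1 to 3. The diabetic arrays lay close together and all above the wildtype ones, with a gap of 0.11 between the nearest values of the groups. The means were 8.07 ± 0.02 and 7.86 ± 0.09 (diabetic and wildtype, SD, n = 3 each). This is a difference of 0.21 (SE 0.08, 95% confidence interval 0.02 to 0.40), or 15.8% more signal in diabetic liver. The limma fit gave an unadjusted p of 0.0358 and an adjusted p of 0.928, so Neu1 was not called. With another variance setting (eBayes with trend and robust) the unadjusted limma p was 0.201. The exact two-sided permutation test over the arrays gave p = 0.1, the smallest that 3 against 3 arrays allow.

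Neu2 is the cytosolic sialidase, best known from skeletal muscle. It had 5.69, 5.61 and 5.50 in the diabetic livers and 5.67, 5.002 and 5.11 in the wildtype livers. Wildtype 1 lay among the diabetic arrays and the other wildtype arrays lay below all of them. The difference of 0.34 (SE 0.18, 95% confidence interval -0.10 to 0.78) was the largest of the 8 in size and had the widest error, and it did not pass (limma adjusted p = 0.928; exact permutation p = 0.3). Without wildtype 1 it was 0.55 (limma adjusted p = 0.254) and without wildtype 2 it was 0.21. The Neu2 signal was 0.44 above the mean of the array medians, and without a detection call a signal at this level was not separated from background.

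Neu3 is the plasma membrane sialidase, which acts mainly on gangliosides. Its probe set was the dimmest of the 8, with 3.49, 3.31 and 3.39 in the diabetic livers and 3.57, 3.36 and 3.31 in the wildtype livers. The groups overlapped throughout. Only 16.5% of all probe sets had a lower mean, so a change in Neu3 transcript could be hidden near background. The difference was -0.02 (95% confidence interval -0.26 to 0.22; limma adjusted p = 0.990), and its sign turned without diabetic 2 (0.026) or wildtype 1 (0.059).

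Among the enzymes of N-glycan breakdown, Aga, which cuts the bond between asparagine and the first N-acetylglucosamine, gave the brightest signal of the 8 probe sets. Brightness also depends on the probes, so the order of signals between genes does not rank their transcripts. Aga had 8.91, 8.86 and 9.04 in the diabetic livers and 8.70, 8.63 and 8.84 in the wildtype livers. The groups did not overlap, but the lowest diabetic and the highest wildtype array were only 0.02 apart. Arrays of the same number moved together for this gene. The diabetic array exceeded its wildtype counterpart by 0.21, 0.24 and 0.21 for numbers 1 to 3. The difference of 0.22 had an SE of 0.09 without and 0.07 with the replicate block, and neither fit called it (limma adjusted p = 0.928 and 0.822; exact permutation p = 0.1 for the groups).

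Man2b1, the lysosomal acid alpha-mannosidase, had a lower mean in diabetic liver. It had 5.77, 5.64 and 5.69 in the diabetic livers and 5.75, 5.86 and 5.87 in the wildtype livers. Diabetic 1 lay above wildtype 1, and the other diabetic arrays lay below every wildtype array. The difference was -0.13 (SE 0.08, 95% confidence interval -0.32 to 0.06; limma adjusted p = 0.928; exact permutation p = 0.2).

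Manba, the beta-mannosidase that splits the last mannose from the chitobiose core, varied between arrays without following the groups. It had 7.26, 7.08 and 7.51 in the diabetic livers, against 7.16, 7.56 and 7.12 in the wildtype livers. Diabetic 3 and wildtype 2 were the high arrays, and diabetic 2 was the lowest. Means were 7.28 ± 0.22 for the diabetic and 7.28 ± 0.24 for the wildtype arrays (SD, n = 3 each), which differ by 0.01 (95% confidence interval -0.39 to 0.40; limma adjusted p = 0.994). The sign depended on single arrays, with -0.11 without diabetic 3 and 0.14 without wildtype 2.

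Gla, alpha-galactosidase A, whose start region held both CACGTG matches, removes the terminal alpha-galactose from globotriaosylceramide. It had 6.35, 6.50 and 6.49 in the diabetic livers and 6.23, 6.34 and 6.18 in the wildtype livers. The groups did not overlap, with diabetic 1 exceeding wildtype 2 by only 0.0063. The difference was 0.20 (SE 0.09, 95% confidence interval -0.01 to 0.40), or 14.5% more signal, and did not pass (limma adjusted p = 0.928; exact permutation p = 0.1).

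Galc, galactosylceramidase, removes galactose from galactosylceramide and psychosine. It had 5.46, 5.51 and 5.85 in the diabetic livers and 5.52, 5.37 and 5.28 in the wildtype livers. Diabetic 3 was the high array, while wildtype 1 lay above both other diabetic arrays. The difference was 0.21 (SE 0.13, 95% confidence interval -0.10 to 0.53; limma adjusted p = 0.928), and without diabetic 3 it was 0.09. The Galc signal was 0.50 above the mean of the array medians, a level close to that of Neu2. Diabetic 3 also had the highest value of 5 of the 7 measured macrophage markers. Csf1r, the receptor of macrophage colony-stimulating factor, was 7.50 there against 6.23 to 6.85 on the other arrays. The macrophage surface protein Adgre1 was 5.18 there against 3.81 to 4.32. The markers that were not highest there were Cd74 and Clec4f. Cd74 was highest on wildtype 3, at 7.94 against 7.31 on diabetic 3, and Clec4f on diabetic 2, at 6.07 against 6.03. On the linear scale the summed signal of the 7 markers ran from 404 to 693 in diabetic and from 455 to 662 in wildtype livers, with wildtype 3, where Galc was lowest, at 662. None of the 7 markers lay in the dimmest 25% of probe sets. The means of Adgre1 and Siglec1 lay 0.86 and 0.25 below the mean of the array medians, where signal was not separated from background. Their part in the Galc values was not tested.

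Set side by side, the differences of Neu1, Aga, Gla and Galc were close to each other, at 0.20 to 0.22, and the share of all probe sets with a smaller difference in size was 83.5% for Neu1, 84.7% for Aga, 81.5% for Gla and 83.7% for Galc. The median difference of the 8 glycosidases was 0.20, beside a median of 0.0020 over all 1246 probe sets, of which 50.6% had higher means in diabetic liver. Without wildtype 2, the array that stood apart most often, the differences were 0.25 for Neu1, 0.17 for Aga and 0.24 for Gla, and without diabetic 3 they were 0.22, 0.16 and 0.17 in the same order. The 3 glycosidases with groups that did not overlap, all higher in diabetic liver, stand beside 4.57% of all probe sets that were higher in this way and 7.87% in either direction. After quantile normalization only Gla kept groups that did not overlap, with 4.57% of all probe sets higher in this way, and the Neu1 difference was 0.13. When each diabetic array was set against the wildtype array of its number, the diabetic one was the higher in 3 of 3 pairs for Neu1, Neu2, Aga and Gla, 4 of the 8 glycosidases, where 14.3% of all probe sets were. For Neu1, Aga and Gla this had to be so because their groups did not overlap, and it is not a separate result. For Neu2 the diabetic array was higher by 0.02 at number 1, against 0.61 and 0.39 at numbers 2 and 3. All 8 confidence intervals excluded a difference of 1 in either direction, and those of 6 excluded 0.5; the intervals of Neu2 and Galc reached 0.78 and 0.53. In the fit with the replicate block all 8 still excluded 1, but 5 excluded 0.5, since that of Manba ran from -0.51 to 0.52. With eBayes with trend and robust the SE was larger for Neu1 (0.15) and Aga (0.16), so their intervals were wider. It was smaller for Neu2 (0.17) and Neu3 (0.09).

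**Figure D2:**
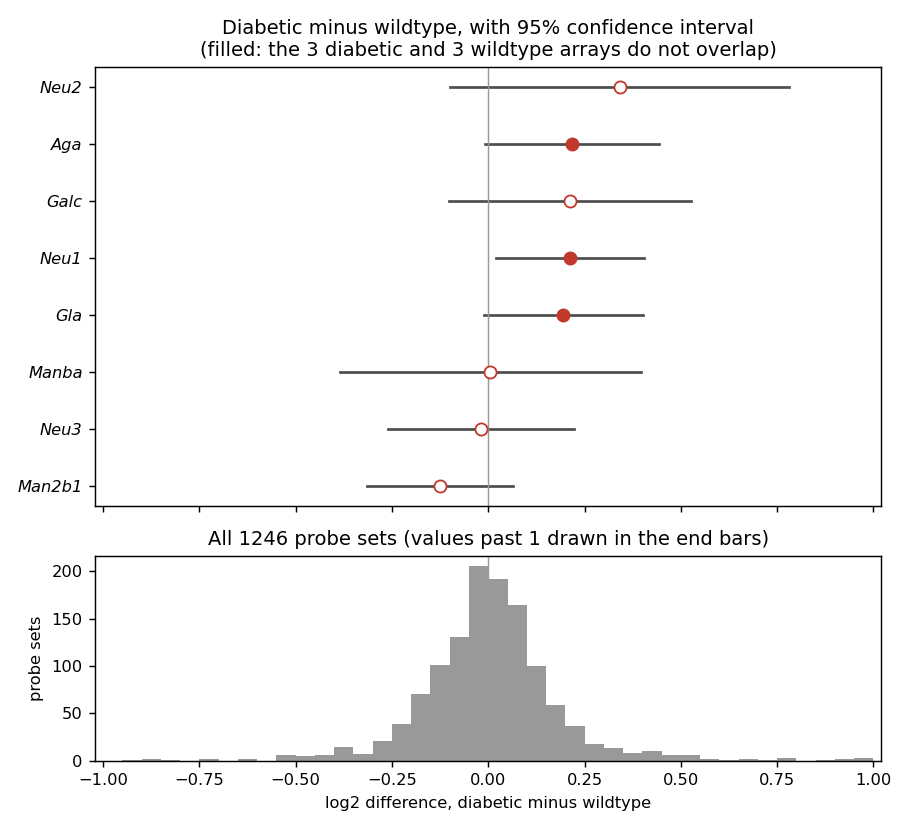
Upper panel: diabetic minus wildtype log2 difference (x axis) of each glycosidase with its 95% limma confidence interval, filled where the 3 diabetic and 3 wildtype arrays did not overlap. Lower panel: the same differences for all 1246 probe sets as counts. The glycosidases lie between -0.13 and 0.34, and the interval of Neu1 alone excludes 0 in the fit drawn here.

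The other genes of glycan breakdown did not pass the test either. Of 5 other measured glycoprotein breakdown genes, 2 had higher and 3 lower means and 0 were called (median difference -0.0016). Of 7 other glycolipid breakdown genes, 4 had higher and 3 lower means with 0 called (median 0.05), and of 11 glycosaminoglycan breakdown genes 5 were higher and 6 lower with 0 called (median -0.0016). Glb1, the beta-galactosidase that is on all 3 lists, had 6.79, 6.74 and 6.87 in the diabetic livers and 6.51, 6.75 and 6.08 in the wildtype livers, a mean 0.35 higher in diabetic liver that was not called (limma adjusted p = 0.928). Wildtype 2 lay among the diabetic arrays, and wildtype 3 was the low one. The Glb1 difference was 0.17 without wildtype 3 and 0.50 without wildtype 2. Smpd1, acid sphingomyelinase, differed by -0.21, the arylsulfatase Arsb by 0.24 (0.13 without wildtype 3) and the sialic acid lyase Npl by 0.09 (0.017 without wildtype 1). Of the 3 measured genes of lysosomal sorting and membranes, 2 had higher means and 1 a lower one, with 0 called. The membrane protein Lamp1 differed by 0.07 (0.014 without diabetic 3, and -0.048 after quantile normalization), and Lamp2 by 0.14 (0.054 without wildtype 2), with -0.03 at the other Lamp2 probe set. Igf2r, a receptor that carries enzymes to lysosomes, was the lower gene, at -0.07 (0.046 without wildtype 2), and was named after its value was seen.

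On the side of synthesis, 0 of 19 sialyltransferases were called, with 12 higher and 7 lower means (median difference 0.02). St6galnac3 and St6galnac2, which add alpha-2,6 sialic acid to O-glycans or gangliosides, were the 2 with groups that did not overlap, both lower in diabetic liver, where 3.29% of all probe sets were lower in this way. St6galnac3 had 3.58, 3.69 and 3.56 in the diabetic livers and 3.98, 3.89 and 3.77 in the wildtype livers (difference -0.27, limma adjusted p = 0.928). St6galnac2 differed by -0.25 and by -0.10 without wildtype 3, and was named after its values were seen. Both signals lay below the array median. St8sia4, a polysialyltransferase, differed by 0.18. Of 5 genes that make and activate sialic acid, 2 had higher and 3 lower means with 0 called; Gne, which starts sialic acid synthesis, differed by 0.18 and Cmas, which activates sialic acid, by -0.14, and each changed sign when 1 array was left out (Gne -0.049 without diabetic 3, Cmas 0.042 without wildtype 3).

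Of 11 genes that build the glycosphingolipids on which Neu3, Gla and Galc act, 7 had higher and 4 lower means and 0 were called (median difference 0.06). B3galt4, which makes ganglioside GM1, was the 1 of the 11 with groups that did not overlap, where 4.57% of all probe sets were higher in this way and 7.87% did not overlap in either direction. It had 5.32, 5.40 and 5.52 in the diabetic livers and 5.13, 5.25 and 5.24 in the wildtype livers, a difference of 0.21 (limma adjusted p = 0.928), at a signal 0.31 above the mean of the array medians. B4galt5, a lactosylceramide synthase, differed by -0.46 with an SE of 0.30, between -0.18 without wildtype 1 and -0.78 without wildtype 3.

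**Figure D3:**
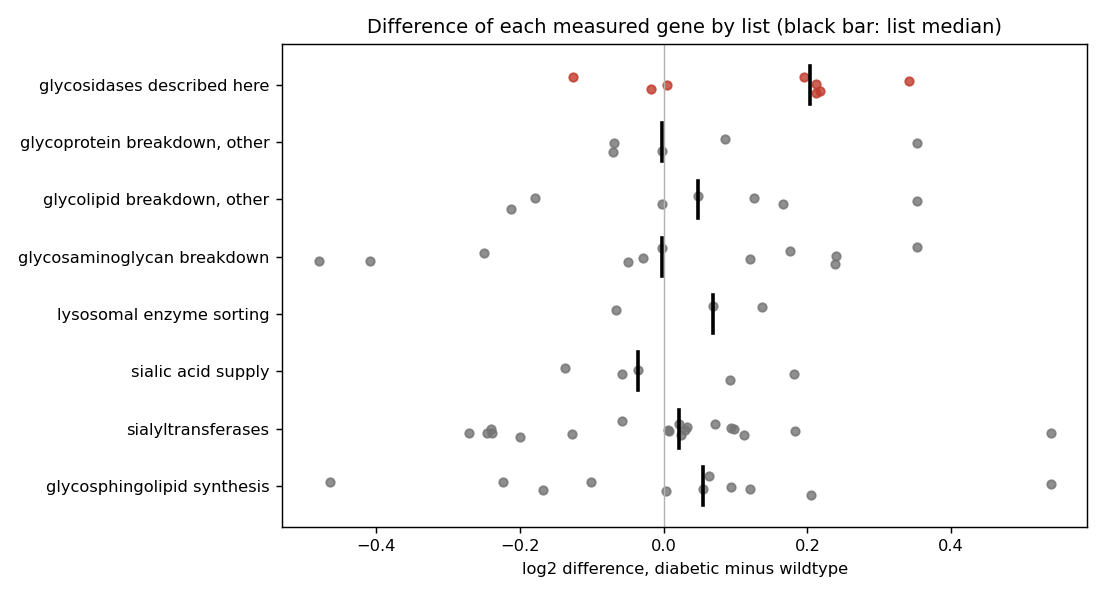
Diabetic minus wildtype log2 difference (x axis) of each measured gene, 1 point per gene, for the 8 glycosidases (red, top row) and 7 lists of related genes (grey), with the list median as a black bar; a gene on several lists appears in each. The median of the glycosidases is 0.20 and those of the other lists lie between -0.04 and 0.07.

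The glycosidases did not share 1 profile over the 6 arrays. Diabetic 2 and wildtype 3 were each the lowest array for 3 of the 8 genes and wildtype 2 for 2, while every array was the highest for 1 or 2. For Neu2, Manba, Galc and Aga, whose SD over the 6 arrays exceeded the median SD of all probe sets (0.14), the nearest profiles among 901 other named genes were found by the root mean square distance between values centred on each gene's own mean. Nearest to Manba were Psap, the saposin precursor, at a distance of 0.058, and Rpn2, a subunit of the oligosaccharyltransferase complex, at 0.062, against a median distance of 0.22. Psap shared the high arrays of Manba, with 11.15, 11.03 and 11.40 in the diabetic livers and 11.13, 11.41 and 10.91 in the wildtype livers. Nearest to Galc were Il2rg, the common gamma chain of several interleukin receptors, at 0.040, and Cd93, a surface protein of endothelial and myeloid cells, at 0.051. Both were highest on diabetic 3, with Il2rg at 5.82 there and between 5.26 and 5.57 elsewhere. Aga was nearest to the growth factor family member Fgf13 (0.033) and the core fucosyltransferase Fut8 (0.034), and Neu2 to the ubiquitin-conjugating enzyme Ube2g1 (0.11) and the cytokine Flt3l (0.12). Fgf13 had only 3.08 to 3.50 over the 6 arrays, a level like that of Neu3, and Cd93 had 4.01 to 4.45. Both lay below the array medians, where signal was not separated from background. All these genes were picked by distance, so sharing high arrays with a glycosidase follows from the choice and is not a separate result. The distances describe 6 arrays and the nearest of many candidates, and several depended on the processing. After quantile normalization they were 0.14 for Manba to Psap, 0.088 for Aga to Fgf13, 0.12 for Aga to Fut8 and 0.19 for Neu2 to Ube2g1, while Manba to Rpn2 was 0.071 and Galc to Il2rg and Cd93 were 0.042 and 0.053. Neu2 to Flt3l was 0.036 without diabetic 3.

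**Figure D4:**
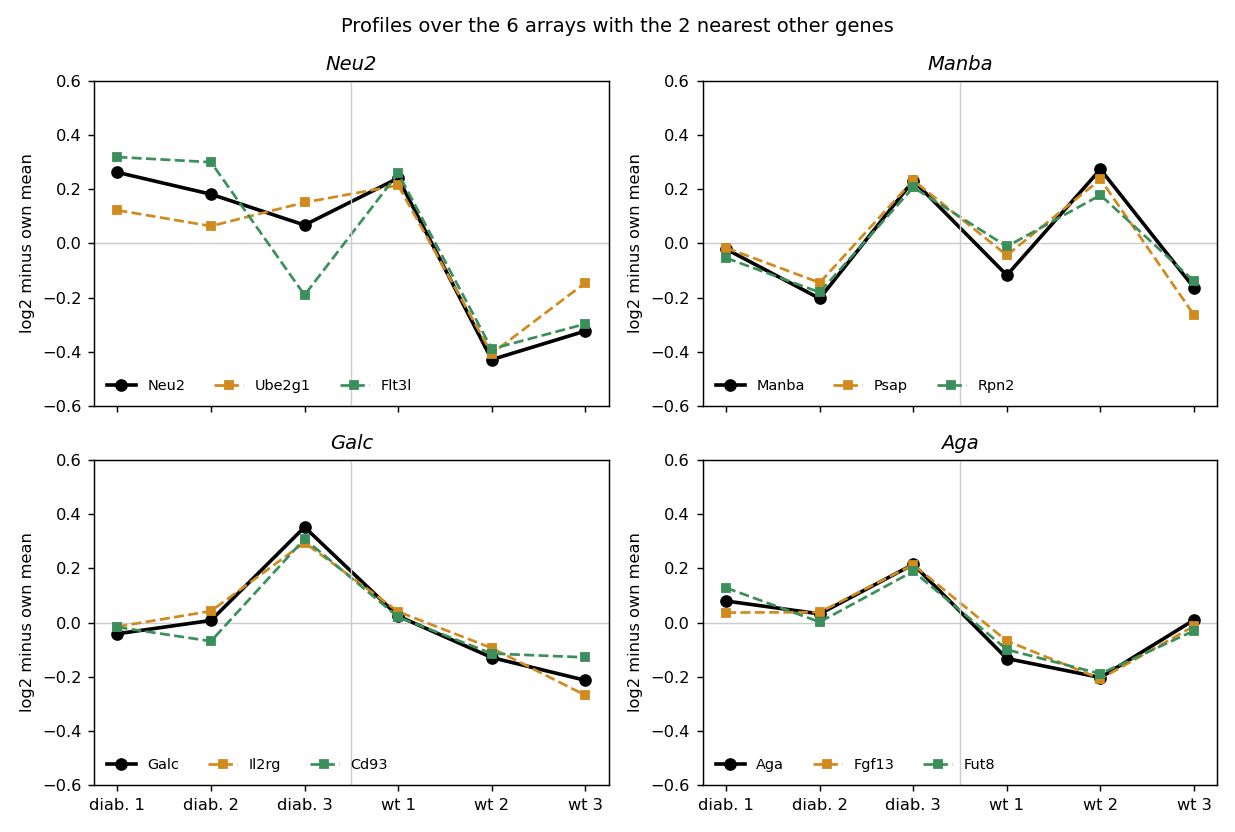
Log2 values minus each gene's own mean (y axis) on the 3 diabetic (left) and 3 wildtype arrays (right) for Neu2, Manba, Galc and Aga (black) and the 2 genes nearest to each (dashed). Manba, Psap and Rpn2 are high on diabetic 3 and wildtype 2, and Galc, Il2rg and Cd93 are highest on diabetic 3, a likeness for which the dashed genes were chosen.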

How the data were processed

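The 6 samples, 3 diabetic and 3 wildtype, were grouped by their titles. The deposited table holds log2 expression values made by the authors with RMA, per the submitters' processing notes, a method of background correction, normalization between arrays and summary over probes; the sources used here give no version. The log2 scale was read from the values (2.03 to 13.45). No detection call was used, and normalization hides a change common to most probe sets. Of 1246 probe sets, 984 carry a RefSeq accession and 963 were named through a RefSeq gene table (GRCm38.p6), giving 909 genes; 283 stayed unnamed. A gene with several probe sets is represented by the one with the highest mean. Probe sets of Gla and Neu2 carry the suffix for probes shared between transcripts.

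Differences came from limma 3.58.1 (lmFit, eBayes; R 4.3.3) over all probe sets, with 4 residual and 2.44 prior degrees of freedom, and from exact permutation tests over arrays (scipy 1.17.1). The fit was tested on simulated data. Deviations from group means of same-numbered arrays correlated at 0.397, 0.138 and 0.162 for numbers 1 to 3, all over 0.1, and a second fit took this number as a block; the labels do not say what a number stands for. The genes and lists were chosen with earlier results of these data known, and the motif letters after the promoters were seen. Named were all measured glycosidases, 2 genes per list by smallest p, with St6galnac2 and Igf2r added outside this rule, the nearest profiles and marker genes. Alternatives were a median shift, quantile normalization, leaving out the dimmest 25% of probe sets, eBayes with trend and robust, array weights, the replicate block, an adjusted p of 0.10 and leaving out each array.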

Additional observations from a re-analysis of the deposited data

How the results depend on the processing

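No glycosidase was called under any alternative, the replicate block and the 0.10 threshold included, and no gene of the 7 related lists was called under the alternatives run for them. Neu1, Neu2, Man2b1, Gla, Galc and Aga kept their direction under all 12 refits, with limma adjusted p between 0.254 (Neu2 without wildtype 1) and 0.995. The replicate block left every difference as it was and changed no call of a glycosidase. Unadjusted limma p was 0.0475 for Neu1 and 0.0351 for Aga with it. For Neu1 it was also under 0.05 with the median shift (0.0399), array weights (0.0288) and without wildtype 2 (0.0334). In the other refits it was over 0.05 for Neu1, with 0.201 for eBayes with trend and robust and 0.186 after quantile normalization. For Aga it was 0.034 without wildtype 3 and over 0.05 in the others, with 0.208 for trend and robust. Gla had an unadjusted limma p under 0.05 with the median shift (0.0389) and array weights (0.0479). It also did without diabetic 1 (0.0457) and without wildtype 2 (0.0443). Neu2 had 0.0022 without wildtype 1. Neither gene was called in these refits. Leaving out 1 array at a time gave differences of 0.16 to 0.25 for Neu1, 0.21 to 0.55 for Neu2, -0.070 to 0.059 for Neu3, -0.11 to 0.14 for Manba, -0.16 to -0.10 for Man2b1, 0.16 to 0.24 for Gla, 0.09 to 0.29 for Galc and 0.16 to 0.28 for Aga. Manba also changed sign with array weights (-0.025). Among related genes the sign turned for Lamp1 after quantile normalization (-0.048), and with 1 array left out for Cmas (range -0.23 to 0.042), Igf2r (-0.23 to 0.046) and Gne (-0.049 to 0.40). The cause was not tested. Groups did not overlap for 3 glycosidases in the deposited values, 1 after quantile normalization, and 3 to 6 with 1 array left out, where fewer arrays make this easier (15.1% to 22.8% of all probe sets); the 6 came without wildtype 1 and added Galc, Neu2 and Man2b1. The 4 calls among all probe sets became 0 with the replicate block and with eBayes with trend and robust, and 0 to 1 with 1 array left out. Neu3 lay in the dimmest 25% of probe sets and has no value without them. Without detection calls, low signal limits Neu3 and the dim sialyltransferases most, and Neu2, Galc and B3galt4 were only 0.44, 0.50 and 0.31 above the mean of the array medians. After quantile normalization 4 of the 8 profile distances grew by over 1.5 times.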
